A study of Drosophila melanogaster with 3 samples.

Results

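Polycomb repressive complex 2 (PRC2) is the enzyme that methylates histone H3 at lysine 27, the mark that keeps developmental genes such as the Hox genes silent in cells where they are not used. In Drosophila its catalytic subunit is E(z), which needs the WD40 protein Esc or its paralog Escl and the zinc finger protein Su(z)12, while Pcl and Jarid2 are accessory subunits. The Pho repressive complex joins a DNA-binding zinc finger protein, Pho or its paralog Phol, both relatives of mammalian YY1, to the MBT domain protein Sfmbt, and it tethers Polycomb proteins to their response elements. The 9 genes that encode these proteins (E(z), esc, escl, Su(z)12, Pcl, Jarid2, pho, phol and Sfmbt) were taken by symbol from the Ensembl BDGP6 annotation, out of 13945 protein-coding genes on the main chromosome arms, and all 9 were found.

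The question addressed was where Stwl (stonewall), a nuclear MADF domain protein known for its role in female germline stem cells, lay at these genes. The single group comprised 3 biological replicates of Drosophila melanogaster embryos, taken whole at 0 to 10 hours of age. Their line carries a stable transgene for Stwl with a C-terminal GFP, through which sonicated chromatin was immunoprecipitated. There was no second condition, and all values are averages over the cell types of whole embryos at mixed ages, in which fewer cells with Stwl at a site and less Stwl per cell cannot be told apart. The deposited peak lists give the summit and a signal value of each peak for every replicate (30000 peaks each), for the pooled reads (30000 peaks) and for the 7241 pooled peaks that passed the irreproducible discovery rate (IDR) threshold. Rank 1 is the strongest peak of a list, and signal values have their own scale in each list. A gene was called bound when any of its transcription start sites (TSSs) had an IDR summit at 500 bp or less, and a wider window took in the gene itself and 5 kb on either side of each TSS. None of the 9 genes lay within 50 kb of stwl, the gene the transgene copies, and the nearest was 3768 kb away.

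Stwl was bound at the promoters of 8 of the 9 genes, with pho as the exception. By the same rule 42.1% of all protein-coding genes were bound. In the wider window the same 8 genes had an IDR summit, against 65.3% of all protein-coding genes. The signal values ran from 1687 at esc to 237.0 at Pcl, with a median of 913.6 over the 8 bound genes, where the median over all 5870 bound genes was 523.1. The 5 genes esc, E(z), Jarid2, Sfmbt and Su(z)12 lay above that genome-wide median, phol lay just under it at 522.6, and escl and Pcl lay below it. No interval accompanies these values because read depth is unknown.

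**Figure D1:**
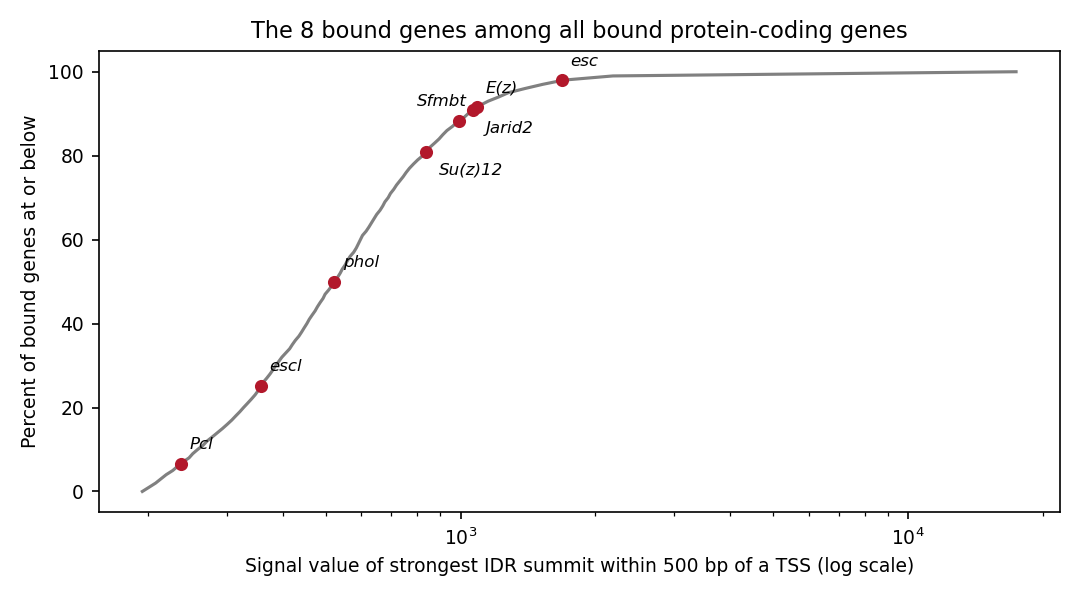
Cumulative distribution of the signal value of the strongest IDR summit within 500 bp of a TSS (x axis, log scale, authors' units) over the 5870 bound protein-coding genes (grey line, y axis in percent of bound genes), with the 8 bound PRC2 and Pho complex genes as red points. The points run from Pcl at 237.0 to esc at 1687, and pho is not drawn because it had no IDR summit.

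The bases under the summits are shown for the paralog pairs, since the esc, escl and phol summits differ in strength and in the gene they lie closest to, and for Jarid2 and Sfmbt, which hold the Pho core and the DNA replication-related element (DRE) in turn. Sfmbt was added to this set after its motif was seen. E(z), whose summit is stronger than those of Jarid2 and Sfmbt, was planned for the set but is not shown, and its trimmed run held no motif match. Each run is read from the RefSeq Release 6 genome (dm6), 5′ to 3′ on the strand of the gene, around the summit, and was trimmed to bases outside annotated UTRs or to 14 bp on either side of a summit that lies in a UTR. Capitals mark matches to the motifs described further on.
esc promoter summit (chr2L:11829406-11829535, minus strand): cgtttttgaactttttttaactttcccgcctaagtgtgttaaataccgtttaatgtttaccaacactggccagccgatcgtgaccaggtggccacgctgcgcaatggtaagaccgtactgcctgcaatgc
escl promoter summit (chr2L:11990866-11990894, plus strand): ctagaATGGCaacactgttttgcactgca
strongest summit in the escl window, between zuc and dgt2 (chr2L:11989883-11989935, plus strand): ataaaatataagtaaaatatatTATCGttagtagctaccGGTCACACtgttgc
phol promoter summit (chr3L:9456152-9456180, minus strand): agattacatttgtgctgttttgcgaagta
strongest summit in the phol window, between CG3448 and ghi (chr3L:9451725-9451875, minus strand): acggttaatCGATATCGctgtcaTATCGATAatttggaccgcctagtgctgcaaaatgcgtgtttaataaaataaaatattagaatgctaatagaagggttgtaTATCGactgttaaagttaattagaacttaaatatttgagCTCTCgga
Jarid2 promoter summit (chr3L:9476966-9477037, plus strand): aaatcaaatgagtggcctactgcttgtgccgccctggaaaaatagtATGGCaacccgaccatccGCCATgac
Sfmbt promoter summit (chr2L:13176817-13176967, minus strand): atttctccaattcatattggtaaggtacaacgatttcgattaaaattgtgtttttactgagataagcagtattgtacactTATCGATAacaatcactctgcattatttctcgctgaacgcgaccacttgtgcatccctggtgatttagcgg

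The gene of the catalytic subunit, E(z) (FBgn0000629, minus strand of 3L, 10634575 to 10638130), held a single IDR summit, at 10638092. It lay 38 bp downstream of a TSS, in the 5' UTR, with a pooled signal value of 1088 and rank 485. The strongest promoter summit had signal values of 185.1, 224.6 and 681.7 in replicates 1, 2 and 3, at ranks 360, 372 and 604. In each of the 3 lists it ranked in the top 604 of 30000 summits. In replicate 2 the peak was split into 2 summits, at 10637957 and 10638158, with signal values of 224.6 and 144.9. The TSS of Cnep1r2, on the other strand, is 16 bp from a TSS of E(z), and the summit lies within 500 bp of the start of both genes. Inside the gene, far from the start, weak summits were listed at 10635455 in a coding exon and at 10636109 in an intron. Their pooled signal values were 69.98 and 78.72, below the IDR threshold, with deposited −log10 q-values of only 0.65 and 0.83. Each was matched within 150 bp in 2 of the 3 replicates, whose reads also make up the pooled list.

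A further core subunit gene, Su(z)12 (FBgn0020887, minus strand of 3L, 19918242 to 19923462), had its promoter summit at 19923599, 137 bp upstream of its TSS. The pooled signal value was 837.1, rank 998. In replicates 1, 2 and 3 the signal values were 120.6, 191.8 and 531.4, at ranks 1220, 601 and 1159. The 3 replicate summits fell within 15 bp of each other, the closest of the 8 bound genes. The intergenic summit stands between Su(z)12 and the prefoldin subunit gene Pfdn6, whose TSS is 209 bp from that of Su(z)12 and is the nearer of the pair, 72 bp from the summit. A second, weaker IDR summit of 256.9 at 19924917 lay 26 bp from the TSS of the Golgi protein gene Grasp65.

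The accessory subunits differed from each other. Jarid2 (FBgn0036004, plus strand of 3L, 9477038 to 9486530) had a pooled signal value of 1065, rank 520, with the summit at 9476989, 49 bp upstream of its TSS. Its signal values in replicates 1, 2 and 3 were 126.8, 154.1 and 786.5, at ranks 1080, 1072 and 412, so replicate 3 placed it higher than the others did. The summit lies between Jarid2 and the deubiquitinase gene Uch-L5, whose divergent TSS is 73 bp from that of Jarid2 and 24 bp from the summit. Pcl (FBgn0003044, plus strand of 2R, 18135426 to 18139990) had the weakest promoter summit of the 8, with a pooled signal value of 237.0 and rank 6177 of the 7241 IDR summits, where the lowest IDR signal value was 194.5. The pooled summit stood exactly on the TSS, 0 bp away. In replicates 1, 2 and 3 the nearest promoter summits were 187, 99 and 2 bp upstream, with signal values of 31.15, 74.63 and 166.4 and ranks 8379, 4056 and 6052. Replicate 1 therefore had no summit within 150 bp of the pooled one, and Pcl was the 1 gene lost when a summit had to recur among the strongest of all 3 replicates, which left 7 of the 9 genes and 34.2% of all protein-coding genes bound. Its neighbour on the other strand, the heat shock factor gene Hsf, had an IDR summit of its own 45 bp from its TSS, with a signal value of 221.8.

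**Figure D2:**
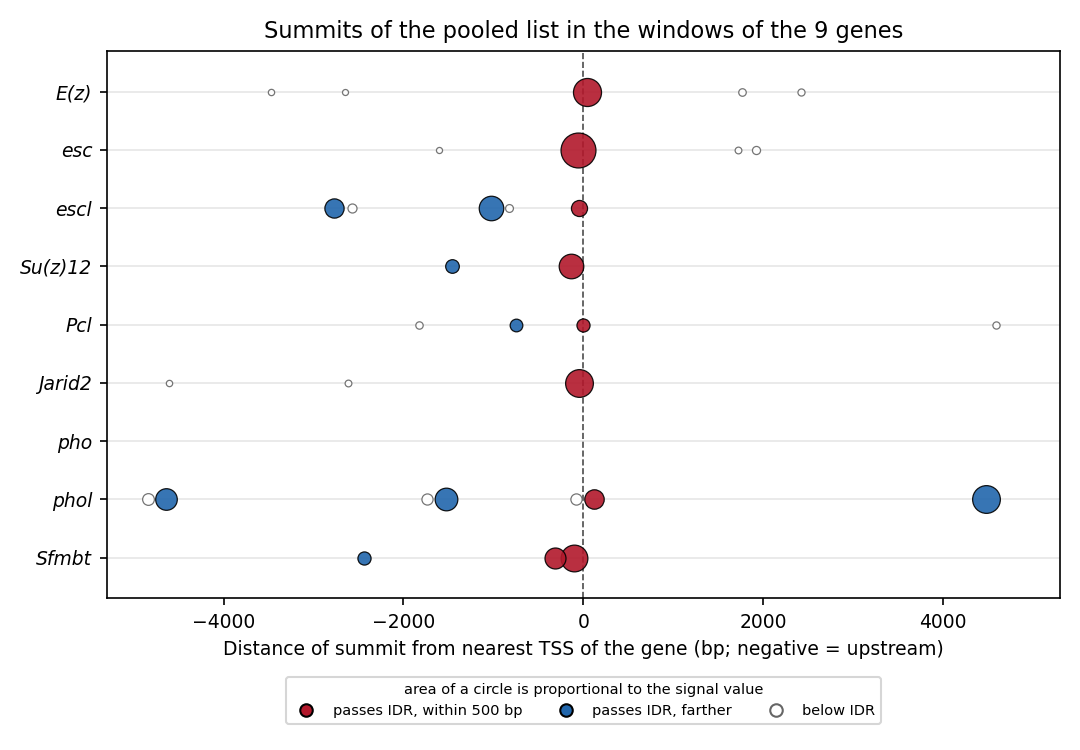
Position of every summit of the pooled list in the windows of the 9 genes, as the distance in bp from the nearest TSS of the gene (x axis, negative upstream, dashed line at the TSS), 1 row per gene. Circle area is proportional to the signal value, red marks IDR summits within 500 bp, blue marks IDR summits farther away and white marks summits below the IDR threshold; the row of pho is empty.

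Of the paralogs Esc and Escl, which take the same place in PRC2, Esc is the one known from maternal and early embryonic function. The promoter summit of esc was the stronger of the pair. The esc summit (FBgn0000588, minus strand of 2L, 11827204 to 11829405) lay at 11829460, 55 bp upstream of the TSS, with a pooled signal value of 1687 and rank 133. Its signal values in replicates 1, 2 and 3 were 255.7, 293.4 and 1133, at ranks 146, 164 and 137, and the summits spread over 39 bp. Only 2.03% of bound genes had a stronger promoter summit. The gene is nested in an intron of the phosphodiesterase gene Pde1c, and no TSS of another gene lay within 500 bp of the summit.

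The escl gene (FBgn0032391, plus strand of 2L, 11990927 to 11992848) starts 161.5 kb from the start of esc on the same arm. Its promoter summit at 11990880, 47 bp upstream of the TSS, had a pooled signal value of 358.4 and rank 4281, and 74.8% of bound genes had a stronger one. In replicates 1, 2 and 3 the signal values were 37.40, 84.08 and 236.5, at ranks 6856, 3499 and 4369. The summit lies in the 3' UTR of dgt2, which encodes a subunit of the augmin complex. A pair of stronger IDR summits stood farther upstream, of 831.3 at 11989905 and of 511.8 at 11988152. The first lies between zuc, a nuclease gene of the piRNA pathway, and dgt2, and the second lies within 500 bp of the TSSs of CG34163 and CG6686.

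The promoter summit of esc exceeded that of escl in each replicate, by 6.84, 3.49 and 4.79 times in replicates 1, 2 and 3. The mean log2 difference, esc minus escl, was 2.28 ± 0.49 (SD, n = 3). The difference between the strongest summits of the 5 kb windows, the main comparison, was smaller, at 0.93 ± 0.14 on the log2 scale (SD, n = 3), since the escl window is then represented by the summit between zuc and dgt2. Both comparisons gave an exact two-sided sign-flip permutation p of 0.25, the smallest that 3 replicates allow, and the main one had an adjusted p of 0.50 over the 2 pairs compared, so no call at 0.05 was possible. Summed over all summits of each window the difference was 0.0084 ± 0.22 (SD, n = 3), with escl higher in 1 of the 3 replicates.

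**Figure D3:**
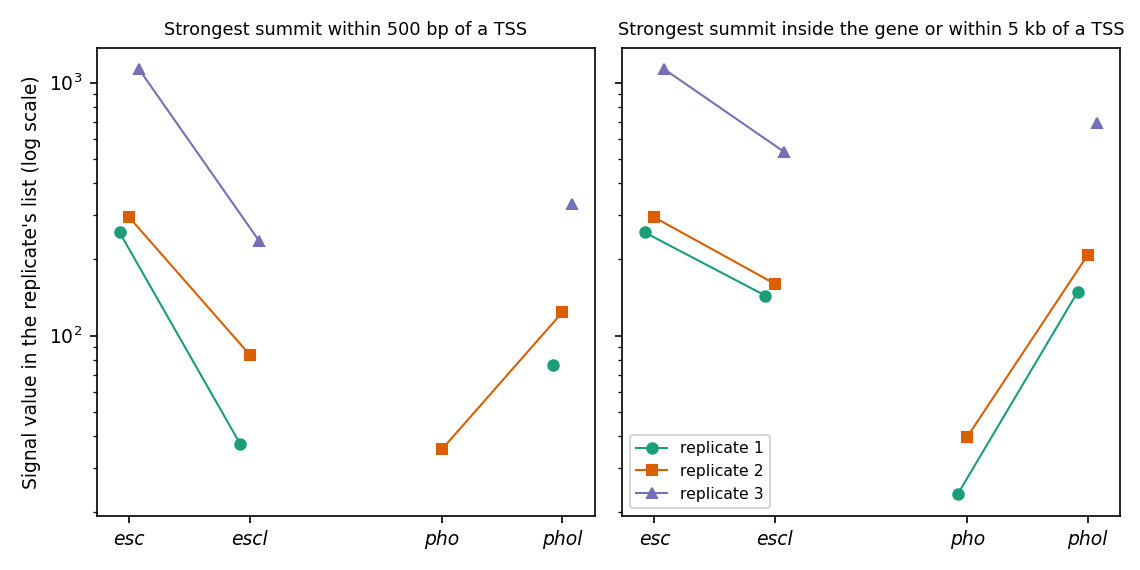
Signal values (y axis, log scale, authors' units of each replicate's own list) of the strongest summit within 500 bp of a TSS (left panel) and inside the gene or within 5 kb of a TSS (right panel) for esc with escl and pho with phol. Each line joins the genes of a pair in 1 replicate, and a missing point means that no summit was listed; esc lies above escl and phol above pho in every replicate where both have a value.

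The DNA-binding subunits of the Pho repressive complex differed in the presence of a summit. The pho gene (FBgn0002521, minus strand of chromosome 4, 1172469 to 1181628) had no IDR summit and no summit of the pooled list in its window, and the nearest in both lists was 17773 bp from its TSS. Replicate 2 alone listed a promoter summit, at 1181830, 202 bp upstream of the TSS, with a signal value of 35.53 and rank 8718. Replicate 2 also listed summits at 1182911, 1183696 and 1185565 with signal values of 39.71, 24.67 and 26.43, and that at 1182911 lies inside a transposable element. Replicate 1 listed 1 summit in the window, at 1182895, close to that one, with a signal value of 23.53 and rank 11943. Replicate 3 listed none, and its lowest listed value was 33.71. The annotation places 10 transposable elements within 5 kb of the pho TSS.

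On chromosome 4 as a whole, 28.8% of 80 protein-coding genes were bound, against 42.2% on the other arms. The list of replicate 2 held more chromosome 4 summits than the others, 446, where those of replicates 1 and 3 held 249 and 199. In replicates 1, 2 and 3 a promoter summit was listed for 67.5%, 80.0% and 56.2% of chromosome 4 genes, against 57.1%, 55.5% and 57.2% of genes on the other arms. The summits near pho in replicate 2 move with that larger share of chromosome 4 summits, whose part in them was not tested.

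**Figure D4:**
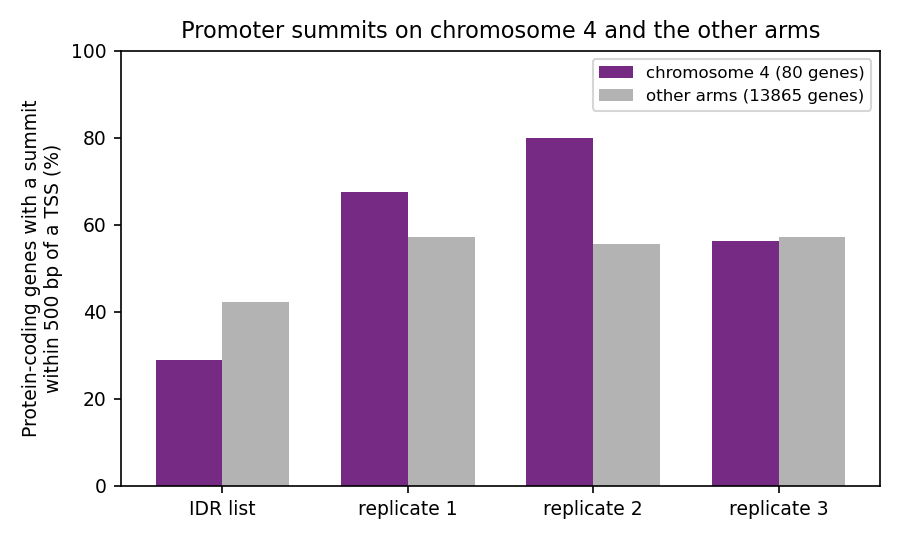
Share of protein-coding genes with a summit within 500 bp of a TSS (y axis, percent) on chromosome 4 (purple, 80 genes) and on the other arms (grey, 13865 genes), in the IDR list and in each replicate list. Chromosome 4 is at 28.8% in the IDR list and reaches 80.0% in replicate 2, the only list with a promoter summit at pho.

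By contrast phol (FBgn0035997, minus strand of 3L, 9452803 to 9456281) was bound, and its window was crowded. Its promoter summit at 9456166, in the 5' UTR 115 bp downstream of the TSS, had a pooled signal value of 522.6 and rank 2629. In replicates 1, 2 and 3 the signal values were 76.61, 123.6 and 332.0, at ranks 2867, 1840 and 2830. The replicate 2 summit stood on the other side of the TSS, 16 bp upstream. The divergent TSS of CG3552 is 37 bp from that of phol, and the antisense RNA gene CR45873 also starts within 500 bp of the summit. The phol window held 4 IDR summits, a number reached by 7.06% of all protein-coding genes. The other 3, of 1064 at 9451800, 709.8 at 9457806 and 644.9 at 9460922, were each stronger than the promoter summit and closest to the TSS of another gene, namely ghi, CG3552 and CG3434. Jarid2, the accessory subunit gene, starts 20.76 kb from phol on the same arm.

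Between the paralogs the strongest summit of the window was lower at pho in both replicates that listed one. Its signal values were 23.53 and 39.71 in replicates 1 and 2, against 149.2 and 207.7 at phol. The phol window is here represented by the summit between CG3448 and ghi, which in the pooled list lies 4481 bp from the phol TSS. The mean log2 difference, pho minus phol, was -2.53 ± 0.20 (SD, n = 2 replicates), with an exact two-sided sign-flip permutation p of 0.50, the smallest that 2 replicates allow, and an adjusted p of 0.50. In replicate 3, phol had 690.0 and pho had no listed value. At the promoter only replicate 2 gave a pair, with 35.53 at pho and 123.6 at phol, a log2 difference of -1.80. With summits whose nearest protein-coding TSS is that of the gene, a setting chosen after seeing the data, the mean log2 difference was -1.67 ± 0.046 (SD, n = 2 replicates).

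Sfmbt (FBgn0032475, minus strand of 2L, 13169649 to 13176785), the partner of Pho in the complex, was the only bound gene of the 9 with 2 IDR summits at its promoter. They stood in 1 peak interval of 632 bp, at 13176892 and 13177098, with signal values of 990.1 and 609.0 and ranks 649 and 1999. In replicates 1, 2 and 3 the stronger promoter summit had signal values of 168.8, 260.9 and 565.6, at ranks 478, 245 and 997. Replicate 2 thus ranked it highest and replicate 3 lowest, a ratio of 4.07 between the ranks. The summits lie upstream of Sfmbt. CG43925, on the other strand, starts 41 bp from the downstream TSS of Sfmbt, and CG5439, also on the other strand, starts 52 bp from the summit at 13177098. A further IDR summit of 239.4 at 13179221 lay 26 bp from the TSS of the N-glycosylation gene Alg7.

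Across replicates, the order of the genes by promoter summit was shared at its ends. In every list esc ranked first among the 9, and phol, escl and Pcl followed the 5 strongest in that order. In the middle, E(z), Jarid2, Sfmbt and Su(z)12 changed places, and neighbours there do not differ beyond the spread between replicates. As multiples of the median signal value of each list, the promoter summits averaged 14.7 ± 3.69 at esc, 10.1 ± 1.19 at E(z), 9.66 ± 1.38 at Sfmbt and 8.68 ± 3.89 at Jarid2. They averaged 7.69 ± 1.52 at Su(z)12, 4.88 ± 0.94 at phol, 3.13 ± 1.12 at escl and 2.51 ± 0.85 at Pcl (SD, n = 3 each). The ratio of the highest to the lowest rank over the 3 lists had a median of 2.00 over the 8 genes, beside 1.85 over 5635 bound genes with a promoter summit in every list. Sfmbt had the widest ratio of the 8, exceeded by 5.22% of those genes, and esc the narrowest, at 1.20.

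**Figure D5:**
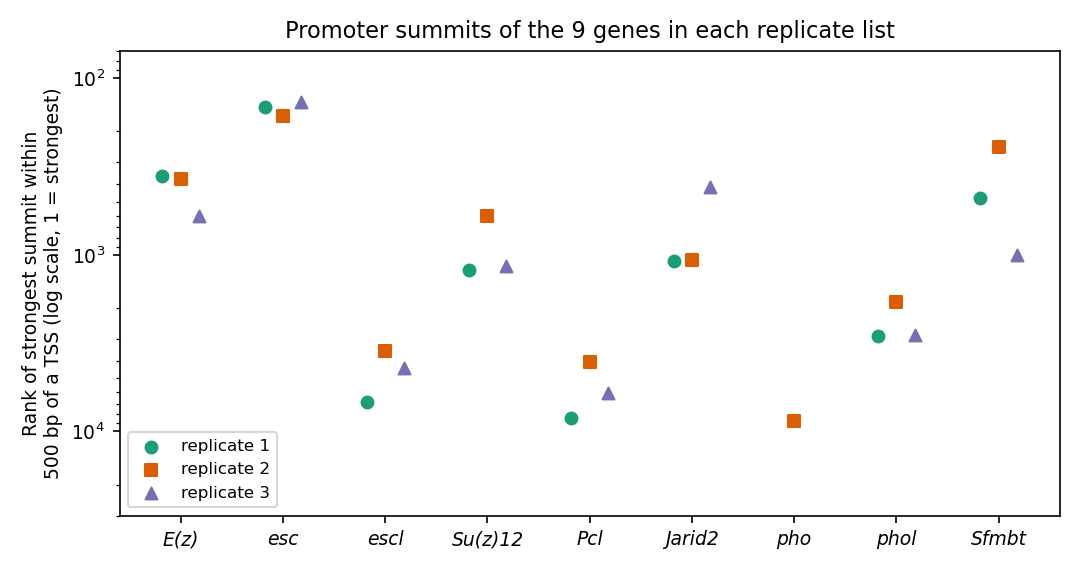
Rank of the strongest summit within 500 bp of a TSS (y axis, log scale, 1 the strongest, drawn upwards) of each of the 9 genes in the lists of replicates 1, 2 and 3. The 3 points of esc lie between ranks 137 and 164, those of escl between 3499 and 6856, and pho has a point in replicate 2 alone.

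The genes whose ranks in the 3 replicates were most like those of esc, by the Euclidean distance of log10 ranks over the 6567 genes with a promoter summit in every list, were SKIP, sktl and Zyx. SKIP had ranks of 148, 169 and 135 in replicates 1, 2 and 3 and a distance of 0.0157. The distances of sktl, which encodes a phosphatidylinositol kinase, and of the focal adhesion gene Zyx were 0.0731 and 0.112.

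In the windows of the 8 bound genes every IDR summit lay within 500 bp of a protein-coding TSS. Over the whole list 4810 of the 7241 IDR summits did so. These shares cannot be compared, because the windows surround TSSs and a gene counts as bound only with a summit that close. Of the 17 IDR summits in the 9 windows, 9 lay within 500 bp of a TSS of the named gene. The other 8 each had another protein-coding gene closest and lay within 500 bp of its TSS, and none was inside the named gene. Among the 9, the promoter summits of Su(z)12 and Jarid2 and the weaker one of Sfmbt also had the TSS of another gene closest. In the whole annotation 7.79% of protein-coding genes held an IDR summit inside the gene and over 500 bp from its TSSs. In the pooled list the promoter summits of 5 of the 8 bound genes lay upstream of the nearest TSS and 2 lay downstream, with Pcl on it. The 2 downstream were those of E(z) and phol. In replicate 2 the strongest promoter summit of phol lay 16 bp upstream of its TSS. That of E(z) lay 78 bp upstream of another TSS farther inside the gene, and still in the 5' UTR. For escl and phol the strongest IDR summit of the window lay over 500 bp from their own TSSs, as it did for 37.2% of all bound genes. A divergent protein-coding TSS up to 1000 bp upstream was found for 6 of the 9 genes, and for 36.2% of all protein-coding genes. The 6 are E(z), Su(z)12, Pcl, Jarid2, phol and Sfmbt, and all 6 were bound, where 70.9% of genes with such a neighbour and 25.7% of those without were bound. Of the 3 genes with no such neighbour, esc and escl were bound and pho was not. For summits between 2 starts, which gene a summit belongs to cannot be told apart.

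Below the IDR threshold the pooled list added 16 summits to the 9 windows, with signal values of 50.06 to 190.4 and a median of 73.66. One of them, at phol, was matched within 150 bp in all 3 replicates, 5 were matched in 2 replicates and 10 in 1. The replicate 2 match at phol is the same summit that matched the promoter IDR summit of that gene. The pooled list draws on the reads of these same replicates, so a match is not independent support. The share matched among all pooled summits below the threshold was not computed. Of the 16, 5 stood within 300 bp of an IDR summit. Inside the named genes and beyond 500 bp of their TSSs there were 4, a pair in E(z) and a pair in coding exons of esc. Over the 4, signal values ran from 62.51 to 90.87 and deposited −log10 q-values from 0.52 to 1.11.

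Motifs were searched as plain letters on both strands within 100 bp of the 9 promoter IDR summits, of which Sfmbt has 2, and their shares among the 4810 IDR summits within 500 bp of a protein-coding TSS are given as background. A match is a description of the letters, not a site. The Pho core GCCAT lay at the summits of escl, Su(z)12, Pcl and Jarid2, that is 4 of 9, beside 28.5% of those promoter IDR summits. The Jarid2 window holds it on both strands, as shown in capitals above. The DRE TATCGATA, which contains the BEAF-32 motif CGATA on both strands, was found at 1 promoter summit, that of Sfmbt, beside 16.3% of promoter IDR summits for the DRE and 54.5% for CGATA. The M1BP core GGTCACAC was found at esc, outside the bases printed, and at Pcl (13.99% of promoter IDR summits), the GAGA factor motif GAGAG at E(z) (17.2%) and the Zelda motif CAGGTA at none (3.56%). No motif of the 6 was found at the promoter summit of phol, whereas its strongest window summit holds a DRE, 5 CGATA matches and a GAGAG match. The escl window summit between zuc and dgt2 holds 2 CGATA matches, a Pho core and an M1BP core, of which the Pho core and a CGATA match lie outside the bases printed. The GC content of the 201 bp windows ran from 30.8% to 49.3% over the 9 promoter summits, with a median of 33.8%, beside 37.3% over all IDR summits, and was highest at esc.

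Other Polycomb group genes gave a mixed picture. Of 19 listed genes, 10 were bound, or 1 of 1 remaining PRC2 subunit gene (Caf1-55), 2 of 6 genes of PRC1, which compacts chromatin and ubiquitinates histone H2A, 1 of 2 genes of the deubiquitinase PR-DUB, 4 of 7 genes of DNA-binding and other recruiters, Scm and the H3K27 demethylase gene Utx. The share of all protein-coding genes is the 42.1% given above. The strongest promoter summits lay at Scm, which links Sfmbt to PRC1, with 4752, at the PRC1 gene ph-p with 1178, at lolal, whose protein binds the GAGA factor, with 1047 and at the PRC1 gene Pc, whose protein reads methylated lysine 27, with 915.0. The ph-p summit lay 477 bp from a TSS of the gene, near the 500 bp limit of the rule. The median over the 10 bound genes was 794.1. No promoter summit passed at ph-d, Psc, Su(z)2, Sce, Asx, Trl, Dsp1, grh or sxc. Of these, Psc, Su(z)2, Asx and sxc had no IDR summit in the wider window either. Su(z)2 nonetheless had a promoter summit at ranks 3149, 3749 and 2534 in replicates 1, 2 and 3, and none in the pooled list. The ph-p and ph-d genes are closely related neighbours. Whether reads were split between them was not tested, and their values are uncertain.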

How the data were processed

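Chromatin immunoprecipitation with sequencing was analysed from 3 biological replicates of 1 labelled group, so no conditions were compared. The deposited peak lists (dm6, per the labels) were derived from the alignments of each library, or of all 3, with a control library, per the text that accompanies the lists; the control is not analysed here. No aligner, peak caller, tool version or IDR threshold is stated: each is not given in the sources used here. Signal values per peak, set by the authors' caller, have their own scale in each list and served to rank and describe peaks and, within a replicate's list, to compare paralogs. The deposited −log10 q-values, set by the authors' caller, were read but rest behind no call. The summit is the deposited peak start plus the deposited offset. Read depth is unknown, so no interval is given.

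Summits were placed on the Ensembl BDGP6 annotation (version 54, release 115), and bases were read from the RefSeq Release 6 genome, with Python 3.11.15, numpy 2.4.6 and pandas 2.3.3. Replicate summits within 150 bp were matched. A gene was called bound where an IDR summit lies within 500 bp of a TSS. Log2 signal differences between paralogs were tested by exact two-sided sign-flip permutation over replicates, with Benjamini-Hochberg adjustment over 2 pairs. The promoter rule and the permutation test were checked on simulated data. All 9 genes are named, with the genes that overlap or start within 500 bp of their summits, the 4 strongest and all unbound of 19 other Polycomb genes (calypso was matched as caly), and the 3 genes most like the strongest in replicate ranks. A few further neighbours and the replicate values of Su(z)2 were named after their values were seen. The genes and lists were chosen with earlier results of these data known. Alternatives changed the distances, the peak list, the TSSs, the summit used and the replicates. The sequence windows were planned as 75 bp on either side of a summit and were trimmed at UTRs.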

Additional observations from a re-analysis of the deposited data

How the results depend on the processing

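Of the 9 genes, pho had no summit in any setting of the IDR, pooled or consensus lists. The count bound at the promoter was 8 at 250 bp (37.8% of all protein-coding genes), at 1000 bp (45.6%), in the pooled list (56.1%), with the outermost TSS alone (40.4%) and with peak intervals (43.6%). It was 6 in the stronger part of the IDR list (without escl and Pcl; 27.7% of all) and 7 in the consensus (without Pcl; 34.2%), and ranged over 7 to 8 without 1 replicate (35.5% to 37.1%). In the wider window it was 8 (65.3%), and 7 in the stronger part of the IDR list (49.5%) and in the consensus (57.5%), but 3 (E(z), Pcl and phol) when only summits inside the gene counted (15.3%). The mean log2 difference of esc minus escl was 0.93. It was 2.28 within 500 bp, 1.63 within 1000 bp and 0.0084 for the sum of all summits. By rank it was 2.67, with the sign turned so that a positive value means a stronger rank at esc. The mean log2 difference of pho minus phol was -2.53. It was -1.80 within 500 bp and within 1000 bp, -3.35 for the sum and, with the sign turned likewise, -4.13 by rank. With summits whose nearest protein-coding TSS is that of the gene, a setting chosen after seeing the data, they were 2.28 and -1.67, and 6 genes had a window summit (37.3% of all). The cause of these changes was not tested. Without 1 replicate the difference ranged over 0.85 to 0.98 for esc minus escl. For pho minus phol, leaving out replicate 1 or 2 left a single value, of -2.39 or -2.67 in turn. Leaving out replicate 3, where pho had no value, changed nothing. No pho summit was matched to an IDR summit, so that setting gave no value for the second pair. Of 19 other Polycomb genes 10 were bound. The count was 9 at 250 bp, 14 at 1000 bp, 8 in the stronger part of the IDR list, 15 in the pooled list and 8 in the consensus, beside the shares of all genes given above for these settings, and 8 to 9 without 1 replicate. The lists hold the strongest peaks of each library, so a gene with no listed summit may still be bound below the lowest value listed.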

Other observations

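The pooled list lacked some summits that every replicate listed. At Su(z)2, a PRC1 gene, the replicate summits ranked within the strongest 5000 of each list, yet no pooled summit lay within 500 bp of the gene's TSS, as for 64 protein-coding genes in all (0.459%). Of the 5000 strongest summits of replicates 1, 2 and 3, 88, 81 and 59 had no pooled summit within 500 bp. The cause was not tested. None of the 9 PRC2 and Pho complex genes was among the 64, since pho had no promoter summit in replicates 1 and 3 and the others were bound.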
